A study of Homo sapiens with 2 samples.

Results

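The NBPF (neuroblastoma breakpoint family) genes were the 10 gene symbols beginning with NBPF in the peak lists of a PTBP1 RNA immunoprecipitation. They were NBPF1, NBPF3, NBPF8, NBPF9, NBPF10, NBPF11, NBPF14, NBPF15, NBPF20 and NBPF25P, out of 6584 symbols in both lists together. They accounted for 29 of 10254 peak positions, all on chromosome 1. MKN-28, a line grown from a human gastric cancer, was lysed, and RNA was recovered with an antibody against PTBP1 or with normal rabbit IgG as the negative control. Each antibody gave 1 library, and no treatment of the cells is named. The libraries were sequenced after removal of ribosomal RNA, and peaks called in the PTBP1 library against IgG were listed separately for mRNAs and for lncRNAs. The difference between PTBP1 and IgG therefore has no replicate check. No test across peaks or genes is given, and the family is described, since it was chosen from these same lists. The sequencing depth is unknown, since only tags within peaks were given, and peak lists hold no expression level from which the identity of the cells could be checked.

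PTBP1 attaches to stretches of pyrimidines in RNA, where it takes part in splice site choice and in the stability of transcripts. NBPF genes encode proteins built from tandem Olduvai domains, formerly named DUF1220, whose number expanded strongly in the human lineage. The family is named after NBPF1, which was found disrupted by a chromosome translocation in a patient with neuroblastoma. Most copies lie in segmental duplications of chromosome 1, next to NOTCH2NL and other recently duplicated genes, and the roles of single members are poorly known. Because many of the copies are nearly identical, short reads from one copy can also align to another, so a peak position within this family is uncertain as to the copy of origin.

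The 250 bases before the start of 5 genes that the lists named are shown because they include the most alike windows among the listed genes. They are read 5′ to 3′ along the gene from the RefSeq promoter table of GRCh38.p14. These windows belong to the RefSeq starts and not to the hg19 starts of the peak lists. Capitals mark bases that differ from NBPF8 (for NBPF9 and NBPF15) or from NBPF10 (for NBPF14) in the best alignment without gaps. The NBPF8 window is chr1:120414777-120415026 on the plus strand. The NBPF9 window is chr1:149103552-149103801, the NBPF15 window chr1:144461670-144461919, the NBPF10 window chr1:146144805-146145054 and the NBPF14 window chr1:148595718-148595967, all on the minus strand.
NBPF8: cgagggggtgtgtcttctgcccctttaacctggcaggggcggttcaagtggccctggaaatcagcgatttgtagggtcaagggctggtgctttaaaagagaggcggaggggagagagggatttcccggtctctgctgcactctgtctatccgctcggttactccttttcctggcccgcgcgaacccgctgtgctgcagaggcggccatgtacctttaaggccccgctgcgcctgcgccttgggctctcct
NBPF9: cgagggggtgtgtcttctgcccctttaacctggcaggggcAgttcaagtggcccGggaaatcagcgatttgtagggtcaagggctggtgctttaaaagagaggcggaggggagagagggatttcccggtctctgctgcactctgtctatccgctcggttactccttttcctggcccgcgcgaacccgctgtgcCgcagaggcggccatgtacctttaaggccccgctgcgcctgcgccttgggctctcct
NBPF15: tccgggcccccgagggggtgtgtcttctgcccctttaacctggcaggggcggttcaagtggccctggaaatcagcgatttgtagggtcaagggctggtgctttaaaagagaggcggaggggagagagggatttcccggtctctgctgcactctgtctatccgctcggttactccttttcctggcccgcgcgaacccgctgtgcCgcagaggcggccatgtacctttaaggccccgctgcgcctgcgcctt
NBPF10: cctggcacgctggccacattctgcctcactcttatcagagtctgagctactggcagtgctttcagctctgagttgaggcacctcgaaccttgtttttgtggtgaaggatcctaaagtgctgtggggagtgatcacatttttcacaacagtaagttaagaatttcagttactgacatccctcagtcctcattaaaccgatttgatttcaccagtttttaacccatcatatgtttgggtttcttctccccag
NBPF14: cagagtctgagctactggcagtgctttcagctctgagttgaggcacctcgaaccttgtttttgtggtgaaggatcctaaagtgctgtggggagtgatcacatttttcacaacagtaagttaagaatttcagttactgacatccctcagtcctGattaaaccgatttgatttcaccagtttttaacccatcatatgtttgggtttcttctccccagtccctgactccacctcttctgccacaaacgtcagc

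The NBPF9 window was identical to that of NBPF8 at 247 of 250 bases (98.8%). NBPF15 matched NBPF8 at 239 of 240 aligned bases (99.6%) when shifted by 10 bases, and NBPF14 matched NBPF10 at 214 of 215 bases (99.5%) when shifted by 35 bases. NBPF1, from a separate site on the short arm, matched NBPF8 at 126 of 198 bases (63.6%) and NBPF3 at 157 of 225 bases (69.8%). NBPF14 has 2 windows in the table, of which the other matched NBPF10 at 44.2%. Of the pairs given so far, only NBPF8 and NBPF9 shared peaks. The other pairs that shared peaks and had windows for both genes had unlike windows. Over all their windows NBPF8 matched NBPF14 at 31.5 to 34.2% and NBPF11 at 35.0 to 35.7%, and NBPF9 matched NBPF14 at 31.9 to 35.1%. Of the 10 genes in the lists, 8 had a window. The letters CTCTCT or their reverse complement AGAGAG, a pyrimidine run on one strand, were found in 6 of 14 NBPF windows. Of all 35116 windows of the same length, 20.3% held them. The 14 windows belong to 12 genes, some of them not in the lists. Those with the letters were windows of NBPF1, NBPF3, NBPF8, NBPF9 and NBPF15. The windows of NBPF8, NBPF9 and NBPF15 are nearly identical, so they are not separate observations. A match is a description of the letters only, and the windows lie before the transcript.

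The first question was which family members had peaks. In the mRNA list 27 peaks carried the names of 9 NBPF genes, and in the lncRNA list 16 peaks carried those of NBPF3, NBPF8 and NBPF25P. Of the 29 positions, 14 were in both lists, 13 were in the mRNA list alone and 2 in the lncRNA list alone. RefSeq holds 23 NBPF genes, 21 of them on chromosome 1 and 14 of them protein-coding. Of these 14, 9 had a peak in the mRNA list, while 25.7% of all 20056 protein-coding genes of RefSeq had one. These 9 genes shared peaks with each other, as given below, so they are not 9 separate observations. No peak was named for the coding genes NBPF4, NBPF6, NBPF12, NBPF19 and NBPF26, nor for 8 pseudogenes of the family. Whether all of these genes were in the hg19 annotation behind the lists is not known.

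NBPF20 carried the most peaks, with 12, followed by NBPF8 with 9, NBPF10 with 7, NBPF25P with 6, and NBPF9 and NBPF14 with 4 each. NBPF1, NBPF11 and NBPF15 had 2 peaks each and NBPF3 had 1. Only 2 of the other symbols in the lists had as many peaks as NBPF20 or more, where the median gene had 1 peak and the highest count was 31. NBPF8 ranked 7th by number of peaks. The spans given for these genes in the lists were long as well. The span between the listed start and end of NBPF20 was 2320935 bases, the longest of 12743 listed transcript placements, whose median was 27925 bases. NBPF10 ranked 5th with 1172752 bases, and NBPF8 ranked 19th with 772608 bases. NBPF1, NBPF3, NBPF11 and NBPF15 had spans between 33771 and 51180 bases. The number of peaks was not adjusted for span.

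**Figure D1:**
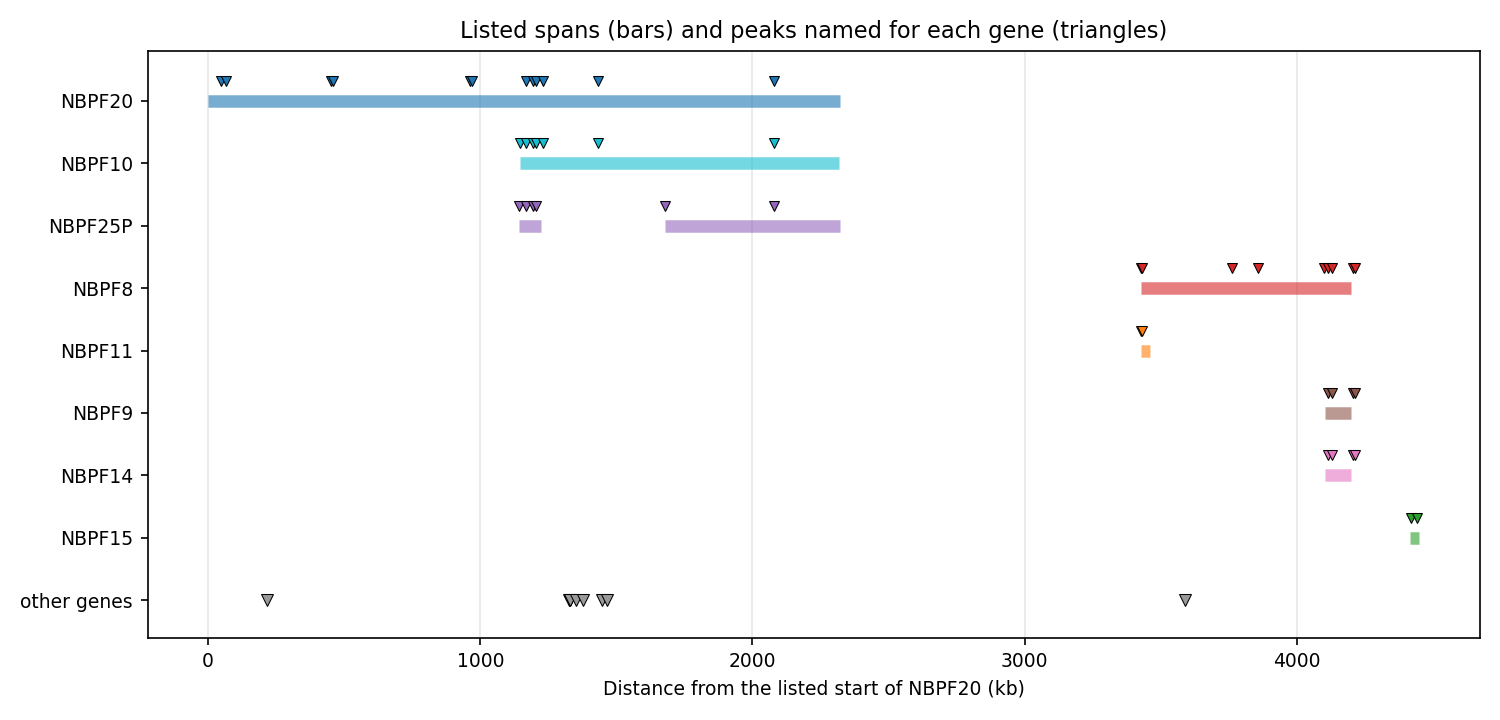
Listed spans (bars) and peaks (triangles, at the summit) of the NBPF genes on the long arm, as distance in kb from the listed start of NBPF20; the bottom row shows the 9 peaks within NBPF spans that were named only for other genes, at their midpoints. The 2320935-base span of NBPF20 contains the spans of NBPF10 and both placements of NBPF25P, and the span of NBPF8 contains those of NBPF9, NBPF11 and NBPF14.

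The positions fell into 4 blocks separated by more than 1000000 bases. The NBPF1 block on the short arm held 2 peaks, and NBPF3 had a single peak. The block of NBPF20, NBPF10 and NBPF25P (hg19 chromosome 1, 144193210 to 146226733, and all positions from here on are hg19) held 15 peaks, and the block of NBPF8, NBPF9, NBPF11, NBPF14 and NBPF15 (147575096 to 148589884) held 11. The median fold enrichment was 6.52 in the NBPF20 block (range 2.41 to 14.72) and 7.36 in the NBPF8 block (4.37 to 9.20). The median number of tags was 13 in the NBPF20 block (6 to 250) and 8 in the NBPF8 block (6 to 18). All NBPF8-block peaks thus held fewer than 20 tags, whereas the NBPF20 block contained the peak with the most tags of the family.

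As a whole the family did not stand out in fold. The median fold of its mRNA peaks was 7.19 (quartiles 6.11 and 8.96), against 7.08 (5.07 and 9.74) over all 8479 peaks of the mRNA list. In the lncRNA list the medians were 7.19 for NBPF peaks and 7.31 for all 2849 peaks. A fold of at least 10 was reached by 5 of 27 NBPF mRNA peaks (18.5%), against 24.0% of all mRNA peaks. NBPF peaks rested on few tags, with a median of 10 per mRNA peak against 13 over the whole mRNA list. Of the 29 positions, 23 held fewer than 20 tags and 11 held 6 or 7. Fewer than 20 tags was also common in the lists as a whole. In the mRNA list it held for 77.8% of NBPF peaks and 63.4% of all peaks. In the lncRNA list it held for 93.8% of NBPF peaks and 66.3% of all peaks. Counting error alone leaves a peak of 6 tags with an exact 95% Poisson interval from 2.2 to 13.1 tags. The intervals cover counting error only. The deposited false discovery rates were high throughout, from 43.17% to 100% and under 50% for 27 of the 29, with a median of 44.85% for NBPF mRNA peaks against 44.97% over the mRNA list.

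**Figure D2:**
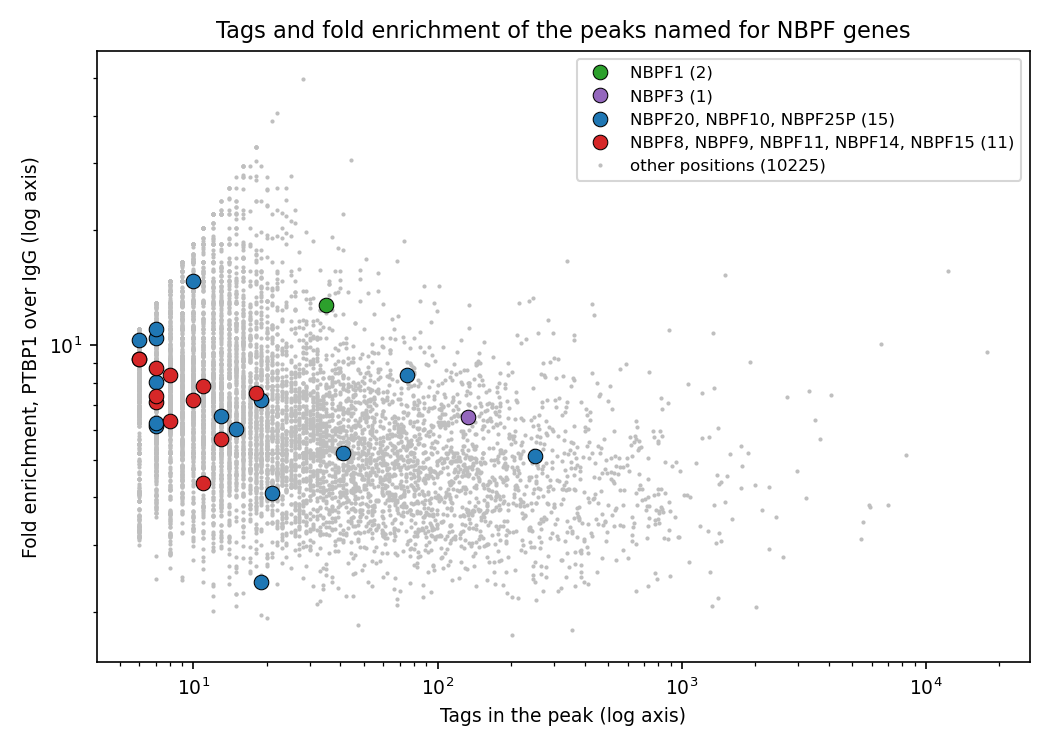
Tags per peak (x, log axis) and fold enrichment of PTBP1 over IgG (y, log axis) for the 29 NBPF positions, coloured by block, and for the other 10225 positions of both lists in grey. NBPF positions lie between 6 and 250 tags and between 2.41-fold and 14.72-fold, within the range of the other positions.

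A few positions carried most of the tags. The 29 positions summed to 784 tags, of which the largest 4 held 499 (63.6%) and the largest alone 31.9%. That largest peak, with 250 tags (interval 220 to 283) and 5.14-fold enrichment, was an intron peak named for NBPF20 (145115717 to 145118704). At 2988 bases it was also the longest peak of the family, and its deposited false discovery rate was 44.12%. A second peak 5963 bases before it (145109511 to 145109753, 19 tags) had the lowest fold of the family, 2.41. Genes without a row in the lists could not be examined, so whether either peak belongs to such a gene was not tested. The NBPF3 peak followed with 133 tags and 6.51-fold, and it lay outside the gene. In an intron of NBPF1 a peak held 35 tags, and another NBPF20 intron peak had 41 tags and 5.22-fold (144598502 to 144600239). The largest counts thus came with folds under 7, with the exception of NBPF1 and of a 75-tag peak shared by NBPF10 and NBPF20.

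The highest folds of the family were mostly at peaks of few tags. An NBPF20 intron peak (144604798 to 144605399) reached 14.72-fold with 10 tags (interval 4.8 to 18.4). NBPF1 followed with 12.74-fold and 35 tags, then 2 NBPF20 intron peaks of 7 tags each with 11.04-fold (144210890 to 144211454) and 10.44-fold (144193210 to 144193648). A peak of 6 tags (146226404 to 146226733) named for NBPF10, NBPF20 and NBPF25P had 10.33-fold. Several of these values recurred across the lists. The fold of 11.04 was given for 707 of the 10254 positions, 9.20 for 349, 10.44 for 195 and 14.72 for 190. In all, 8 of the 29 NBPF positions had a fold that at least 100 positions shared, and they held 6 to 41 tags. Over both lists 24.2% of positions had such a fold. Small differences between these folds therefore do not rank the NBPF genes.

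NBPF1, the founding member, was the only name at both its peaks. They lay within its own listed span on chromosome 1 (16888921 to 16940100, minus strand) and in that of no other listed gene. The intron peak (16932695 to 16933762) had 35 tags (interval 24.4 to 48.7), 12.74-fold enrichment and a p score of 146.45. This score is the deposited p-value as −10 times its log10. Its deposited false discovery rate was 80.11%. The exon peak (16911889 to 16912288) had 6 tags, 9.20-fold and a p score of 38.59. NBPF3 was named in both lists for 1 intergenic peak (21724312 to 21725202), which lay 41825 bases before its start, measured from the middle of the peak as for all distances to a start, and in no span of the lists. NBPF15 had 2 intron peaks of 11 tags each within its span and named for it alone, with 7.83-fold (148589212 to 148589884) and 4.37-fold (148567278 to 148567947). NBPF1 and NBPF15 were thus the members, beside NBPF20 and NBPF8, with peaks over the listed span of 1 NBPF gene that were named for that gene.

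The second question was how often a peak was named for several family members. Of the 29 positions, 12 carried more than 1 NBPF name (41.4%, 95% Wilson interval 25.5 to 59.3%), with 4 carrying 2 names and 8 carrying 3. Within the mRNA list alone 12 of 27 NBPF peaks had several names (44.4%, 27.6 to 62.7%), against 3.79% of all mRNA peaks. In the lncRNA list no peak had more than 1 NBPF name. There 1 of 16 NBPF peaks carried a further name, that of GPR89A (6.25%), against 4.21% of all lncRNA peaks. The shared names fell into 4 sets. NBPF10, NBPF20 and NBPF25P shared 4 positions, NBPF8, NBPF9 and NBPF14 shared 4, NBPF10 and NBPF20 shared 2, and NBPF8 and NBPF11 shared 2. No set joined both blocks.

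**Figure D3:**
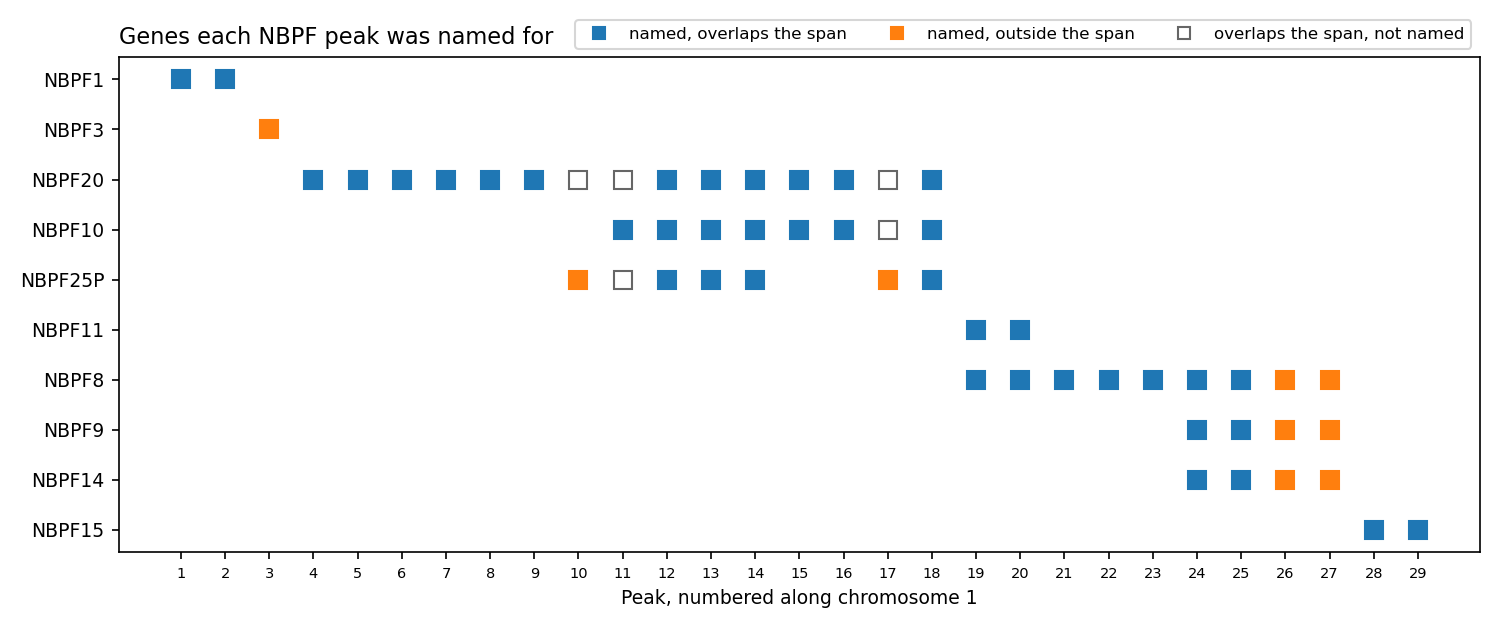
Names of the 29 NBPF positions, numbered along chromosome 1 (x), against the 10 NBPF genes (y). Filled squares are genes the peak was named for (blue inside the listed span, orange outside it). Open squares are spans the peak overlaps without carrying the name. None of NBPF9, NBPF11 and NBPF14 has the only filled square of any column.

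Counting only positions with 1 NBPF name, 7 of the 10 genes had a peak and 3 had none. NBPF9, NBPF11 and NBPF14 shared the position of every peak with NBPF8. NBPF9 and NBPF14 had the same 4 positions, with listed starts 173 bases apart and the same listed end. Of the 12 NBPF20 peaks, 6 carried no other name, and these 6 included the 250-tag and the 14.72-fold peak. NBPF8 had 3 of 9 positions to itself and NBPF10 had 1 of 7. Of the 17 positions with a single NBPF name, 2 overlapped the spans of several NBPF genes. When a position also had to lie over no other NBPF span, 5 genes had one, namely NBPF1, NBPF3, NBPF8, NBPF15 and NBPF20, and the NBPF3 peak lay outside the gene.

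NBPF20 and NBPF10 shared 6 positions. The peak with the highest p score of the family, 208.10, was named for NBPF10 and NBPF20 as an intron peak (145578004 to 145578617), with 75 tags (interval 59 to 94) and 8.39-fold. Its deposited false discovery rate was 100%, the only such value in the family. It lay 284940 bases after the start of NBPF10 and 1431500 bases after that of NBPF20. On hg19 it fell between the listed positions of ITGA10 and NUDT17. In the RefSeq gene order of GRCh38.p14 the coding genes PIAS3 and ANKRD35 stand between these, and neither has a row in the lists, so whether the peak belongs to them was not tested. The 5 other positions shared by NBPF10 and NBPF20 had 6 to 21 tags and 4.12-fold to 10.33-fold. NBPF25P was also named at 4 of them, with 15 tags and 6.05-fold (145312760 to 145313339), 7 tags and 6.28-fold (145341776 to 145342119), 19 tags and 7.18-fold (145351844 to 145352900) and the 6 tags and 10.33-fold given above. The remaining 1 held 21 tags at 4.12-fold (145375528 to 145376317). All 5 were intron peaks with p scores between 32.90 and 45.32.

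NBPF25P is a transcribed pseudogene, and its transcript was listed at 2 places on chromosome 1 (145289769 to 145370303 and 145827204 to 146467743). Of 12699 accessions in the lists, 29 (0.228%) had more than 1 placement. Both of the NBPF25P peaks with no other NBPF name were promoter peaks, 1 before each placement. The first (145288724 to 145289143) had 7 tags and 8.03-fold and lay 836 bases before the start. The second (145826022 to 145826868) had 13 tags and 6.52-fold, lay 759 bases before the start, and was named for GPR89A in both lists. GPR89A, a gene of a Golgi pH regulator, was the only gene outside the family whose name or listed span coincided with an NBPF position. NBPF10 had the family's other promoter peak (145294015 to 145294487, 7 tags, 6.17-fold), 881 bases after its start.

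NBPF8 shared its 9 positions between both lists, since it was listed with a coding and 2 noncoding transcripts of the same span. Its exon peak (147575096 to 147575961, 18 tags, 7.53-fold) was also named for NBPF11, whose listed end it shares, and lay between 774 and 1639 bases before that end. For NBPF8 the same peak was 771401 bases from the start, and for NBPF11 32564 bases. The companion peak in an intron (147579216 to 147579759) held 7 tags at 7.10-fold. The peaks of NBPF8 alone had 8 tags and 6.33-fold (147907230 to 147907821), 13 tags and 5.69-fold (148004528 to 148005408), and 8 tags and 8.35-fold (148248111 to 148248343). The last of these lay 1905 bases past the listed end of NBPF9 and NBPF14 and had the highest p score of the NBPF8 block, 77.60.

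NBPF8, NBPF9 and NBPF14 shared 2 intron peaks and 2 upstream peaks. The intron peaks had 7 tags and 7.36-fold (148261445 to 148261987) and 10 tags and 7.19-fold (148274451 to 148274909). The upstream peaks had 7 tags and 8.72-fold (148353339 to 148353895) and 6 tags and 9.20-fold (148360882 to 148361316), and they lay 6688 and 14170 bases before the start of NBPF8 and NBPF9. These 4 positions held 30 tags in all, so each of the 3 genes rests on the same 30 tags there. Their false discovery rates lay between 43.24% and 45.29%.

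The third question was where the peaks lie relative to the genes. In the mRNA list 21 of 27 NBPF peaks were intron peaks (77.8%, 95% Wilson interval 59.2 to 89.4%), against 15.1% of all mRNA peaks. Exon and upstream peaks made up 2 each (7.41%, 2.06 to 23.4%), against 32.4% and 16.4% of all mRNA peaks. The intron share of the NBPF lncRNA peaks was 62.5% (38.6 to 81.5%), against 11.1% of all lncRNA peaks. The intron share was not adjusted for the length of the spans. The 2 exon peaks were those of NBPF1 and of NBPF8 with NBPF11.

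**Figure D4:**
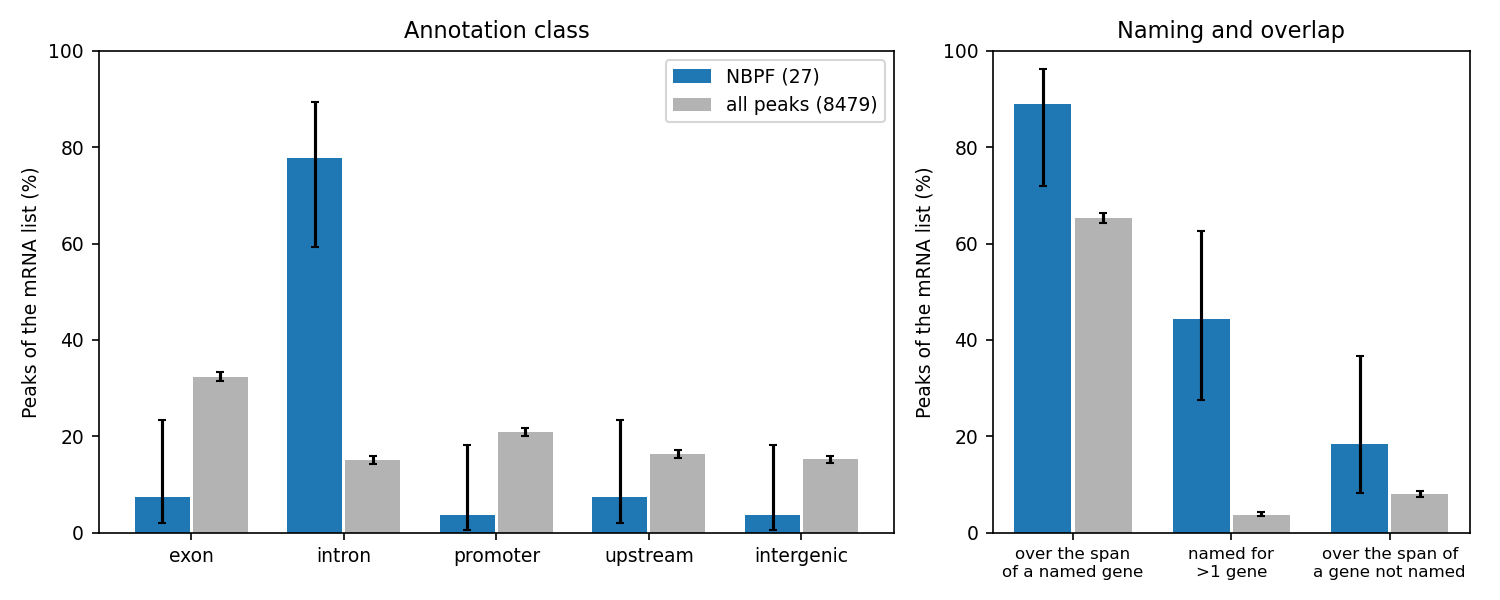
Left, share (%) of the 27 NBPF peaks (blue) and of all 8479 peaks (grey) of the mRNA list in each annotation class; right, share that overlaps the span of a gene it was named for, that has several names, and that overlaps the span of a gene not named at it in this list. Bars are shares with 95% Wilson intervals, and the intron share is 77.8% for NBPF peaks and 15.1% for all peaks.

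Most NBPF peaks lay over a span they were named for. This held for 24 of 27 mRNA peaks (88.9%, 71.9 to 96.1%), against 65.4% of all mRNA peaks, and for 11 of 16 lncRNA peaks (68.8%, 44.4 to 85.8%), against 36.4% of all lncRNA peaks. The 5 positions outside such a span were the NBPF3 peak, both NBPF25P promoter peaks and both upstream peaks of NBPF8, NBPF9 and NBPF14. The shares over a named span were not adjusted for the length of the spans. Peaks also overlapped the spans of genes for which the same list did not name them. This held for 5 of 27 NBPF mRNA peaks (18.5%, 8.18 to 36.7%), against 8.07% of all mRNA peaks, and for 10 of 16 NBPF lncRNA peaks (62.5%, 38.6 to 81.5%), against 18.1% of all lncRNA peaks. All of these unnamed genes were NBPF genes. NBPF25P has rows only in the lncRNA list, and NBPF9, NBPF10, NBPF11, NBPF14 and NBPF20 only in the mRNA list. The lncRNA list could therefore not name all the genes at a shared position, and the mRNA list could not where NBPF25P was among them. With the names of both lists joined, only the promoter peaks of NBPF25P and NBPF10 overlapped an NBPF span whose name they lacked. Across both lists 12 positions overlapped the spans of 2 or 3 NBPF genes, 14 overlapped 1 and 3 overlapped none.

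The reverse also occurred, since peaks within NBPF spans were named for other genes. There were 9 such positions with none of the NBPF names, 5 of them promoter and 4 of them upstream peaks. They were named for LIX1L (3 peaks), RBM8A, ITGA10, NUDT17 with RNF115, POLR3C with RNF115, PPIAL4A with PPIAL4C, and LOC101927468. The largest was an upstream peak named for RBM8A, a gene of the exon junction complex. It had 333 tags and 6.71-fold, more tags than any NBPF position, and its deposited false discovery rate was 100%. Of the 23 positions over the NBPF20 span, 12 were named for NBPF20, all of them as intron peaks. The other 11, of which 3 were the promoter peaks of NBPF25P and NBPF10, were all promoter or upstream peaks. Of the 15 positions over the NBPF10 span 7 were named for it, and of the 8 over the NBPF8 span 7 were.

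The order of the copies along chromosome 1 also differed between the lists and the newer assembly. In the hg19 lists NBPF8 and NBPF15 came after NBPF20, NBPF25P and NBPF10, and NBPF8 contained NBPF11, NBPF14 and NBPF9. In the RefSeq order of GRCh38.p14 NBPF8 and NBPF15 stand before NBPF20, and NBPF12 stands between NBPF10 and NBPF11. All 17 NBPF accessions of the lists carried the same symbol in RefSeq.

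Of 35 genes set down as neighbours in the duplicated blocks of chromosome 1 and on their flanks, 13 had a peak and 10 of these had one over their span. Of the 25 that RefSeq gives as protein-coding, 11 had a peak in the mRNA list, against 25.7% of all protein-coding genes, and 5 of the 11 were PPIAL4 genes that shared 2 positions. NOTCH2, the receptor gene from which NOTCH2NL arose, reached 14.84-fold at an intron peak of 14 tags and had 2 intergenic peaks of 7 and 14 tags. PRKAB2, a regulatory subunit of AMPK, had exon peaks of 108 tags (8.61-fold) and 38 tags (4.87-fold). ACP6, a lysophosphatidic acid phosphatase, had 3 peaks. The exon peak of ACP6 held 6 tags at 11.04-fold, and its other peaks, of 65 and 31 tags, were intergenic and outside its span. CHD1L, a chromatin remodeler, FAM72A and GPR89A had 1 peak each, of 8, 8 and 13 tags. LINC01138 had intron peaks of 22 and 9 tags. SRGAP2D had an exon peak of 105 tags (3.48-fold) and an intergenic peak of 80 tags (7.12-fold), with deposited false discovery rates of 89.84% and 87.77%. Not all of these peaks lay near the NBPF positions. Those of NOTCH2 (120466266 to 120695285) lay well before the NBPF20 block. Those of FAM72A (from 206145408) and SRGAP2D (from 206566009) lay far beyond the last NBPF position. Shared names occurred among the 35 genes too. PPIAL4A and PPIAL4C shared 1 promoter peak of 26 tags and 6.07-fold, and PPIAL4D, PPIAL4E and PPIAL4F, copies of a cyclophilin A-like gene, shared an intergenic peak of 7017 tags and 3.82-fold, 39113 bases before their start. No peak carried the name of the remaining 22 neighbours, among them NOTCH2NL, PDE4DIP and BCL9.

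Among 11 other gene families spread by segmental duplication, 8 had peaks. The NPIP genes had 8 positions for 8 genes, with several NPIP names at 4 of the 8 (50%) and a median fold of 6.52. The GOLGA8 genes had 5 positions for 5 genes, none with several GOLGA8 names, and the SPDYE genes had 5 positions for 4 genes, with several SPDYE names at 2. The remaining 5 families with a peak had 1 to 4 positions each and none with several names of the family. The 4 positions found under TBC1D3 include 2 of TBC1D30, which is spelled alike but is not a member. NBPF had the most positions of these families, 29, and 12 with several family names. Its share with several names was 41.4%, against 50% for NPIP and 40% for SPDYE. The numbers of positions were not adjusted for span or family size, and NBPF was chosen from these same lists. These shares rest on few positions and describe these lists alone.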

How the data were processed

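RNA recovered with a PTBP1 antibody or rabbit IgG from MKN-28 cells was sequenced, 1 library each. The submitters' processing notes name cutadapt (1.9.3), Bowtie2 (2.2.4) and hg19. The peak caller, the strand of the library and the handling of reads that align to several copies are not stated in any source read. The authors deposited peak tables with the tag count in each peak, without saying which library was counted. The deposited fold enrichment is the ratio of PTBP1 over the IgG background. The deposited p-value is a score, its negative log10 multiplied by 10, and the false discovery rate is a percent as deposited. Full mRNA and lncRNA tables were used, and the promoter tables were not.

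NBPF rows were those whose symbol begins with NBPF. Members, lists and alternatives were chosen with earlier results of these data known. Positions were counted once. Overlap meant at least 1 base shared with the listed start-to-end span of a transcript in either table. Spans of genes without a row were not examined. Named genes were all NBPF symbols, other names or spans at their positions, neighbours with a peak (from 35 listed) and the 3 duplicated families with the most positions (from 11, matched by the start of the symbol). Intervals are 95% Wilson or exact Poisson and cover counting error only. They were tested on simulated data. Names, gene classes and gene order came from RefSeq (GRCh38.p14). Promoter windows of 250 bases were compared without gaps over at least 100 bases. Coordinates are hg19, counted from 1, except those of the promoter windows. Alternatives were minimums of fold, tags or p score, a smaller false discovery rate, merged peaks, joined lists, older gene names and other definitions of overlap. Chosen after seeing the data were peaks with 1 NBPF name or span, and the lists without the NBPF20 and NBPF8 names. Tables were read with pandas (2.3.3) and numpy (2.4.6) in Python (3.11.15), intervals came from scipy (1.17.1) and plots from matplotlib (3.10.9).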

Additional observations from a re-analysis of the deposited data

How the results depend on the processing

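No paired analysis was possible because each group has 1 library and no test was run. Of 106 alternative values, 75 stayed within set limits and 31 moved. The limits were a factor of 1.5 for a count and the 95% interval for a median or a share, so a count could fall by up to that factor and still be within them. Keeping only folds of 10 or more left 5 NBPF peaks for 3 genes in the mRNA list (median 11.04-fold) and 1 peak for 1 gene in the lncRNA list (10.33-fold, 6 tags). With at least 20 tags there were 6 mRNA peaks for 4 genes (median 5.87-fold and 58 tags, 0% over another gene) and 1 lncRNA peak for 1 gene (133 tags), which overlapped neither its own (0%) nor another gene (0%). A p score of at least 50 left 7 mRNA peaks (median 35 tags) and 4 lncRNA peaks (median 15.5 tags). A false discovery rate at or below the list's median left 15 mRNA and 10 lncRNA peaks. Joining the lists gave 29 peaks for 10 genes, against 16 peaks for 3 genes in the lncRNA list alone. Of the alternatives chosen after the data were seen, peaks with 1 NBPF name numbered 15 in the mRNA and 6 in the lncRNA list, and peaks over 1 NBPF span 13 for 4 mRNA genes and 4 in the lncRNA list. Without the NBPF20 and NBPF8 names 7 lncRNA peaks for 2 genes and 18 mRNA peaks for 7 genes were left, against 27 mRNA peaks for 9 genes with them. The mRNA genes numbered 6 with a p score of at least 50 and 6 with peaks of 1 NBPF name. Except for the joined lists, these counts are lower because fewer peaks are kept. Merging peaks within 100 bases and adding older gene names changed no count.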
